A study of Mus musculus with 63 samples.

Results

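Among 32 arrays of native Eµ-myc lymphomas, the 10 with the highest and the 10 with the lowest level of CD3 genes were compared. CD3 is the protein complex that carries the signal of the T-cell receptor into the cell, and its genes Cd3d, Cd3e and Cd3g are neighbours on mouse chromosome 9. A CD3 score was formed as the mean log2 value of these 3 genes, each centred among native arrays of the same RNA input. The arrays were thus chosen by measured values, and these 20 arrays, of 63 in the series, are called T-cell-rich and T-cell-poor after the score. Cd3d, Cd3e and Cd3g were left out of all tests.

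Both groups came from C57BL/6 mice with the genotype label Emu-myc transgenic, in which an immunoglobulin heavy-chain enhancer drives a Myc transgene in the B lineage. RNA was taken from lymph node lymphoma cells without culture, and the label "native" marks arrays without drug. For the 100 ng arrays the labels add that cells were not purified, and for the 300 ng arrays they do not speak of purification. The remaining 31 arrays were labelled CTX 4h, taken after cyclophosphamide, an alkylating drug, although the text of the series speaks of untreated samples alone. The labelled drug amount was 300 mg/kg in the 29 CTX 4h arrays of 100 ng, and CTX 4h arrays of 300 ng carried no such label. The labels do not settle whether native cells came from the transgenic mice themselves or from transplant recipients, and they give no ages. No label says that arrays came from separate mice, and a p-value here reflects spread among arrays that may be technical.

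A lymph node that holds a B-cell lymphoma still contains T cells, dendritic cells, stroma and vessels of the host. Naive T cells enter a node through high endothelial venules, whose cells carry mucins that bind L-selectin, and are drawn on by chemokines of the stroma. Activated T and NK cells secrete interferon gamma, which induces the chemokines Cxcl9 and Cxcl10 and the machinery of antigen presentation. In bulk RNA, fewer cells of a type and less RNA per cell cannot be told apart.

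The score lay between 0.39 and 2.46 (median 0.91) in T-cell-rich arrays and between -1.47 and -0.43 (median -1.03) in T-cell-poor arrays. Just inside the upper limit was replicate 20, at 0.39, and just outside it replicate 28, at 0.34. Just inside the lower limit was replicate 5, at -0.43, and just outside it replicate 23, at -0.41. The choice thus cut a continuous range, and the 12 arrays between the groups ran from -0.41 to 0.34. Cd3d had a lowest, median and highest log2 value of 6.44, 7.21 and 8.75 in T-cell-rich arrays, against 5.73, 5.99 and 6.35 in T-cell-poor arrays. Cd3e had 8.63, 9.83 and 11.54 in T-cell-rich arrays, against 7.23, 7.79 and 8.61 in T-cell-poor arrays. Cd3g had 8.79, 9.65 and 11.53 in T-cell-rich arrays, against 5.92, 7.15 and 7.65 in T-cell-poor arrays. No array of one group reached the other for any of the 3 genes, as the choice made likely. Replicate 20 owed its place to Cd3g, at 10.54, since its Cd3d (6.44) and Cd3e (8.63) were the lowest of the T-cell-rich arrays.

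**Figure D1:**
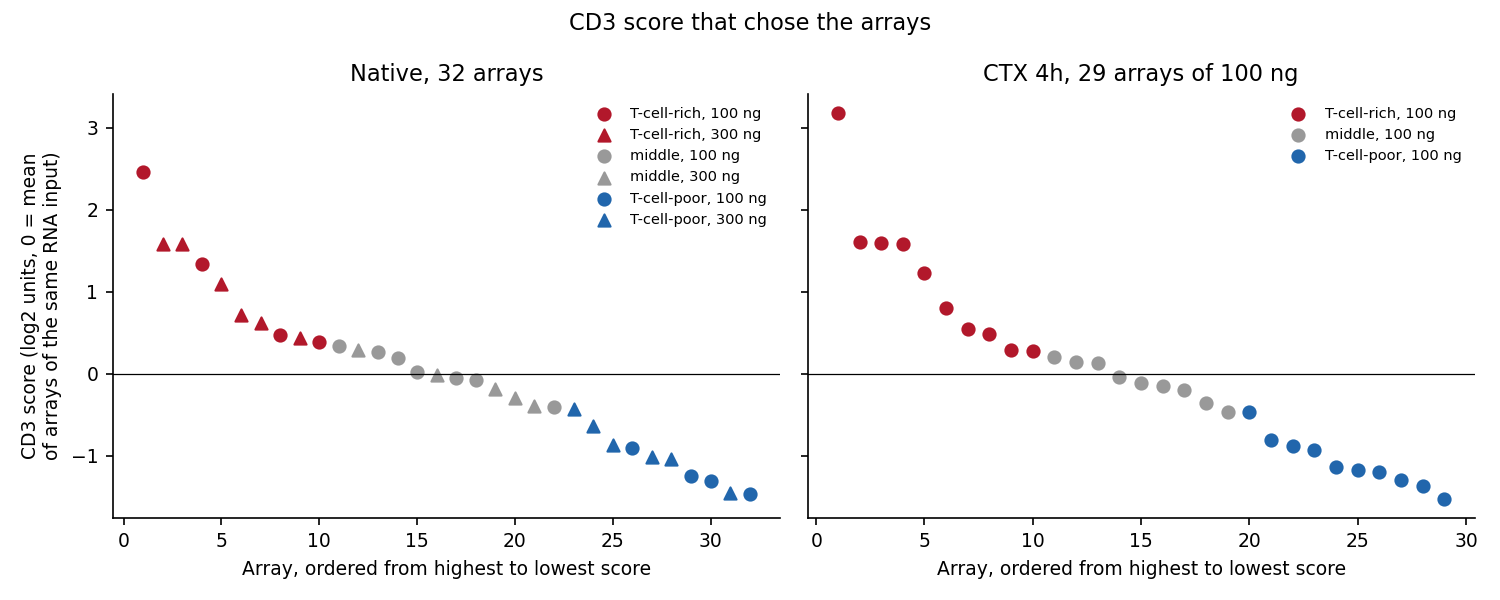
CD3 score of each array (vertical axis, log2 units around the mean of arrays of the same RNA input), with arrays ordered from the highest to the lowest score, for native arrays on the left and the CTX 4h arrays of 100 ng on the right. Circles are arrays of 100 ng and triangles of 300 ng; the scores fall off without a gap at either limit, and replicate 30, at 2.46, is the highest native array.

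Each group held 4 arrays of 100 ng and 6 arrays of 300 ng, and the lymphoma numbers in the labels began with 1, 8 and 9 in 2, 5 and 3 arrays of each group. Array medians lay between 6.60 and 6.93 in T-cell-rich and between 6.54 and 6.95 in T-cell-poor arrays, and the number of arrays limits the precision of each value. Some arrays stood apart. T-cell-rich replicate 4 had a Myc value of 10.64, where the other 9 T-cell-rich arrays lay between 13.05 and 13.71, and without it 200 genes were higher and 9 lower. T-cell-poor replicate 15 had the lowest scores of its group for pan-B-cell genes (-1.08) and precursor B-cell genes (-1.79), and the highest Cd4 (10.69) and Cd8b1 (10.36), while its CD3 genes were low (Cd3e 7.83). Without replicate 15, 291 genes were higher and 9 lower. Salivary gland genes were high in T-cell-rich replicates 4, 16, 17 and 12 (scores of 3.73, 2.52, 2.20 and 2.13) and in T-cell-poor replicate 5 (2.99, against -0.09 or less in the other T-cell-poor arrays). Without replicate 5, 291 genes were higher and 9 lower. T-cell-rich replicate 3 had the highest neutrophil score (2.80), and the counts were 257 and 11 without it and 302 and 7 without replicate 20. A list score here is the mean of a list's genes after centring each gene.

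Of 19935 genes tested with limma, with RNA input as a term, 230 (1.15%) were higher and 8 (0.0401%) lower in T-cell-rich arrays at an adjusted p under 0.05, so 1.19% changed in either direction. The number of higher genes was 144, 149, 152 and 153 without replicates 17, 9, 16 and 14, and the number of lower genes ran from 1 to 26 when single arrays were left out. The log2 fold changes of all 238 genes had the same sign at 100 ng and at 300 ng. The genes were called on these same arrays, so a shared sign was likely from the outset and is no independent check. Within the 100 ng arrays alone (4 against 4) 1 gene was higher, and within the 300 ng arrays alone (6 against 6) 26 were higher, with none lower in either. The mean of the 12 middle arrays lay between the group means for 229 of the 230 higher genes and for all 8 lower genes. Every T-cell-rich array lay above every T-cell-poor array for 23 genes (0.115%), and below for 1 gene, Malsu1 (0.00502%). Over all genes the median log2 fold change was -0.03, and 40.4% of genes had a positive one. Of the 230 higher genes, 39 were in lists of T-cell and NK-cell genes, 36 in other lists only, and 155 in none of the 31 lists. Because arrays were ranked by CD3 genes, T-cell genes had to follow and are described by their values, and an adjusted p for any other gene says how well it went along with that ranking.

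Of 14 measured T-cell receptor chains and surface molecules, all had a positive log2 fold change, with a median of 1.29, and 9 were among the called genes. The groups did not overlap for 2 of the 14. Prkcq, which encodes protein kinase C theta, a kinase of the T-cell receptor pathway, had a lowest, median and highest log2 value of 7.55, 8.77 and 10.38 in T-cell-rich arrays, against 5.92, 6.77 and 7.47 in T-cell-poor arrays. Its groups did not overlap, and its log2 fold change was 2.21 ± 0.30 (SE). Cd96, a receptor of T and NK cells, had 6.88, 8.16 and 9.83 in T-cell-rich arrays, against 5.28, 5.96 and 6.43 in T-cell-poor arrays, again without overlap. Cd27, a costimulatory receptor of the tumour necrosis factor receptor family, differed by 1.86 ± 0.27 (SE) on the log2 scale, and its groups did not overlap. Cd247, the zeta chain that completes the receptor complex, differed by 0.96 ± 0.15 (SE), and 1 T-cell-poor array, replicate 32 at 7.99, lay inside the T-cell-rich range of 7.73 to 9.02.

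Signalling genes had a median log2 fold change of 0.81 over 18 measured genes, of which 7 were called and 1 had no overlap between the groups. Themis, needed for the selection of thymocytes, differed by 1.53 ± 0.24 (SE), Txk, a Tec-family kinase, by 1.23 ± 0.20 and Sh2d1a, an adaptor of SLAM receptors, by 0.99 ± 0.15. Zap70, the kinase that binds the phosphorylated receptor chains, had 7.09, 7.92 and 8.97 in T-cell-rich arrays, against 6.4, 7.50 and 8.48 in T-cell-poor arrays. The Zap70 groups overlapped over most of their range, unlike those of Prkcq. Among 12 T-cell transcription factors, 3 were called and the median was 0.52. Bcl11b, which holds cells in the T lineage, had 7.45, 7.69 and 8.49 in T-cell-rich arrays, against 6.87, 7.16 and 7.26 in T-cell-poor arrays, with no overlap. Tox differed by 1.08 ± 0.19 (SE) and Gata3, which directs helper T cells, by 0.75 ± 0.18. Lck and the T-cell receptor constant genes were not analysed here.

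Of 12 genes of naive, homing and memory T cells, 5 were called and the median log2 fold change was 0.81, and of 6 thymocyte genes 1, Ccr9, was called and the median was 0.15. Other T-cell genes stood with these. Dapl1, known from naive and memory T cells, had a lowest, median and highest log2 value of 8.10, 9.48 and 11.64 in T-cell-rich arrays, against 6.23, 7.10 and 7.64 in T-cell-poor arrays. It differed by 2.61 ± 0.33 (SE), a 6.11-fold difference without overlap. Ms4a4b, a membrane protein of T cells, differed by 2.0 ± 0.26 (SE), also without overlap. Slfn1, a Schlafen family gene studied in thymocytes, differed by 2.16 ± 0.22 (SE) without overlap, with 7.72, 8.25 and 9.64 in T-cell-rich arrays, against 5.55, 6.14 and 6.79 in T-cell-poor arrays. Gimap3, a GTPase of lymphocytes, differed by 1.95 ± 0.45 (SE), and T-cell-poor replicates 5 and 19 reached 8.20 and 8.84, inside the T-cell-rich range of 7.03 to 10.63. Slfn1, Ms4a4b and Gimap3 have close relatives in the genome, so their probe sets may read more than 1 gene.

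CD8 genes separated the groups more clearly than Cd4 did, though the difference between them was not tested. Cd8a, the alpha chain of the cytotoxic T-cell coreceptor, had 7.64, 8.86 and 10.73 in T-cell-rich arrays, against 6.82, 7.23 and 7.87 in T-cell-poor arrays. Cd8b1, its beta chain, had 8.64, 9.32 and 10.99 in T-cell-rich arrays, against 6.70, 7.31 and 10.36 in T-cell-poor arrays. Apart from replicate 15, at 10.36, no T-cell-poor array came above 7.98 for Cd8b1. Cd4, the coreceptor of helper and regulatory T cells, had 8.53, 9.13 and 10.43 in T-cell-rich arrays, against 7.30, 8.81 and 10.69 in T-cell-poor arrays. The Cd4 groups overlapped widely, replicate 15 being the highest of all 20 arrays, and the log2 fold change was 0.66 ± 0.36 (SE). Ccr9, a chemokine receptor of thymocytes and gut-homing T cells, was also highest among the T-cell-poor arrays in replicate 15, at 7.99, where the other T-cell-poor arrays lay between 5.30 and 6.66.

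Of 22 genes of cytotoxic and NK cells, 10 were called and the median log2 fold change was 0.57, though 11 of the 22 had a mean under 6 in T-cell-poor arrays, near the low end of these arrays. Nkg7, a protein of cytotoxic granules, had 7.58, 8.99 and 11.28 in T-cell-rich arrays, against 6.18, 7.19 and 7.66 in T-cell-poor arrays. Klrd1, the CD94 receptor chain, had 6.15, 7.32 and 8.79 in T-cell-rich arrays, against 5.43, 5.72 and 5.95 in T-cell-poor arrays. The Klrd1 groups did not overlap, and those of Nkg7 overlapped at 1 end alone. Klrk1, the receptor NKG2D, differed by 0.86 ± 0.13 (SE) and Klrc1, the receptor NKG2A, by 0.75 ± 0.12, and probe sets of this receptor family may share signal.

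Among the effector molecules, Gzmb, which encodes granzyme B, had 5.91, 6.14 and 7.99 in T-cell-rich arrays, against 5.24, 6.15 and 6.68 in T-cell-poor arrays, so the medians were nearly alike. Gzma had 5.30, 5.75 and 8.03 in T-cell-rich arrays, against 4.66, 5.59 and 6.17 in T-cell-poor arrays. In both granzyme genes 1 T-cell-rich array, replicate 16, stood far above the rest. Prf1, which encodes perforin, differed by 0.56 ± 0.14 (SE) with 7.05, 7.54 and 7.89 in T-cell-rich arrays, against 6.44, 6.95 and 7.49 in T-cell-poor arrays. Ifng, the gene of interferon gamma, had 5.99, 6.12 and 6.39 in T-cell-rich arrays, against 5.92, 6.21 and 6.55 in T-cell-poor arrays, a log2 fold change of -0.09 ± 0.08 (SE).

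All 13 regulatory T-cell genes had a positive log2 fold change, with a median of 0.69, and 5 were called. Foxp3, the factor that defines regulatory T cells, had 6.96, 7.37 and 8.63 in T-cell-rich arrays, against 6.62, 6.70 and 7.18 in T-cell-poor arrays. Ctla4, an inhibitory receptor of these cells, had 5.69, 7.11 and 8.81 in T-cell-rich arrays, against 5.45, 6.04 and 6.54 in T-cell-poor arrays. Il2ra, the alpha chain of the interleukin 2 receptor, differed by 1.22 ± 0.29 (SE) and Ikzf2 (Helios) by 0.73 ± 0.17. The groups overlapped for each of these 4 genes. None of the 5 calls held when replicate 30, 17, 9, 14, 6, 31 or 10 was left out, nor with the macrophage score as a term.

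Of 17 immune checkpoint genes and their ligands, 5 were called and the median log2 fold change was 0.46. Vsir, which encodes the inhibitory receptor VISTA found on T and myeloid cells, had 8.92, 9.29 and 10.15 in T-cell-rich arrays, against 7.79, 8.33 and 8.58 in T-cell-poor arrays. It differed by 1.09 ± 0.15 (SE) with no overlap between the groups. Nt5e, the ectoenzyme CD73 that makes adenosine, differed by 1.27 ± 0.27 (SE), Tigit by 0.81 ± 0.18 and Lag3, both inhibitory receptors, by 0.46 ± 0.11. Pdcd1, the gene of PD-1, had 6.11, 6.88 and 7.36 in T-cell-rich arrays, against 5.92, 6.26 and 6.87 in T-cell-poor arrays. Its ligand gene Cd274 had 8.0, 8.58 and 9.31 in T-cell-rich arrays, against 7.89, 8.21 and 8.55 in T-cell-poor arrays (log2 fold change 0.39 ± 0.14, SE, limma adjusted p = 0.242). Both pairs of groups overlapped over much of their range. The number of checkpoint genes called was 2 with the macrophage score as a term and without replicate 30, 17, 16, 9 or 14, 3 without replicate 18, 32, 6 or 10, and 7 without replicate 5. Tigit lost its call when any of 7 arrays was left out, and Lag3 when any of 11 was.

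**Figure D2:**
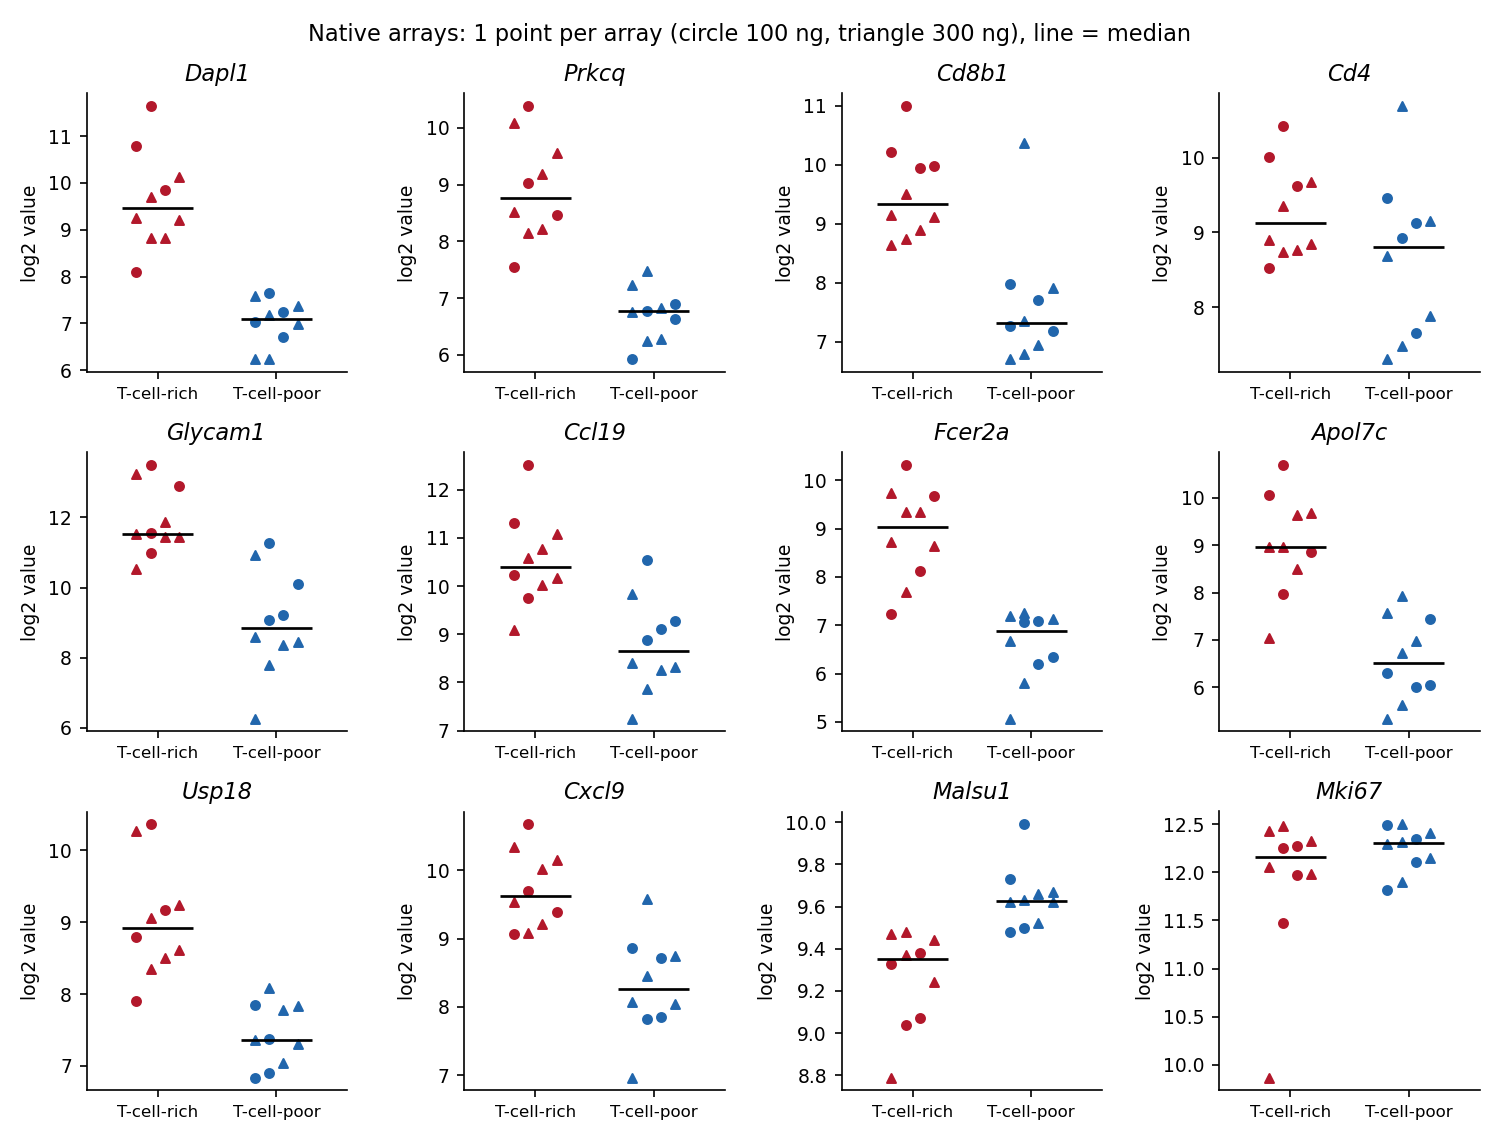
Log2 value (vertical axis) of 12 genes in each of the 20 native arrays, T-cell-rich on the left and T-cell-poor on the right of each panel, with circles for 100 ng, triangles for 300 ng and a line at the median. Dapl1 and Prkcq separate the groups and Malsu1 separates them the other way, while Cd4 and Mki67 overlap and 1 T-cell-poor array stands at 10.36 for Cd8b1.

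Among genes of the node's entry routes, Glycam1, a mucin of high endothelial venules that binds L-selectin, had the largest log2 fold change of the called genes. Its lowest, median and highest log2 values were 10.54, 11.54 and 13.49 in T-cell-rich arrays, against 6.27, 8.84 and 11.26 in T-cell-poor arrays. The groups overlapped, since T-cell-poor replicates 5 and 19 reached 10.92 and 11.26, and the difference was 2.89 ± 0.48 (SE, limma adjusted p = 0.00373), 7.42-fold. Of 14 genes of node stroma and high endothelial venules, 4 rose, 13 had a positive log2 fold change, and the median was 0.65 (0.19 at 100 ng and 0.75 at 300 ng). Il7, a survival factor for T cells made by stroma, rose by 0.65 ± 0.12 (SE, limma adjusted p = 0.006), with 4.70, 5.35 and 5.97 in T-cell-rich arrays, against 4.02, 4.68 and 5.03 in T-cell-poor arrays. All of these Il7 values were under 6, near the low end of these arrays. Stab2, a scavenger receptor of sinus endothelium, rose by 0.62 ± 0.15 (SE), with an adjusted p of 0.0491 by limma, a call that was lost when any of 14 arrays was left out.

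Of 11 chemokine genes that attract T cells, 5 rose and the median log2 fold change was 0.60. Of these 11 genes, 4 also belonged to other lists, so the counts of different lists can hold the same gene. Ccl19, a chemokine of node stroma that acts on Ccr7, had 9.09, 10.40 and 12.51 in T-cell-rich arrays, against 7.25, 8.65 and 10.54 in T-cell-poor arrays, and rose by 1.78 ± 0.35 (SE, limma adjusted p = 0.0116). Cxcl12, the ligand of Cxcr4, had 7.93, 8.49 and 8.96 in T-cell-rich arrays, against 7.19, 7.68 and 8.05 in T-cell-poor arrays, and rose by 0.78 ± 0.14 (SE, limma adjusted p = 0.00571). In both genes every T-cell-rich array lay above the median of the T-cell-poor arrays, and the ends of the ranges overlapped. Ccl5, a chemokine made by T and NK cells themselves and counted among the cytotoxic genes, had 10.27, 10.78 and 12.99 in T-cell-rich arrays, against 7.93, 9.08 and 10.30 in T-cell-poor arrays. The receptor genes were less marked, with log2 fold changes of 0.60 ± 0.15 (SE, limma adjusted p = 0.0501) for Ccr7 and 0.85 ± 0.54 (adjusted p = 0.595) for Il7r, which B-lineage precursors express as well. Il7r ran from 9.27 to 11.78 in T-cell-rich arrays and from 6.73 to 12.04 in T-cell-poor arrays, and its difference was -0.56 at 100 ng and 1.80 at 300 ng.

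Of 19 vessel and fibroblast genes 1 rose, Cdh5, the adhesion molecule of endothelial junctions, by 0.52 ± 0.11 (SE, limma adjusted p = 0.0229). Over the list the median was 0.23, 14 genes had a positive log2 fold change and 7 an unadjusted p under 0.05. The call for Cdh5 was lost without replicate 17, at an adjusted p of 0.0519. Kdr, the receptor of vascular endothelial growth factor, had a log2 fold change of 0.59 ± 0.15 (SE, limma adjusted p = 0.0516).

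B-cell genes were counted by stage, and the lists were not tested against each other. None of 17 pan-B-cell genes and none of 15 precursor B-cell genes were called by limma, with 1 gene in each list at an unadjusted p under 0.05 and a median log2 fold change of 0.12 in both lists. Of 14 mature B-cell genes, 6 rose, 13 had a positive log2 fold change, and the median was 0.93 (1.15 at 100 ng and 0.76 at 300 ng). Fcer2a, the low-affinity IgE receptor CD23 of follicular B cells, had a lowest, median and highest log2 value of 7.23, 9.03 and 10.31 in T-cell-rich arrays, against 5.07, 6.88 and 7.26 in T-cell-poor arrays. The groups met only at 7.23 and 7.26, and the gene rose by 2.30 ± 0.36 (SE, limma adjusted p = 0.00285), 4.92-fold. Cxcr5, which guides B cells and follicular helper T cells into follicles, had 6.57, 7.81 and 8.94 in T-cell-rich arrays, against 4.88, 5.79 and 6.92 in T-cell-poor arrays, and rose by 1.64 ± 0.29 (SE, limma adjusted p = 0.00558). Every T-cell-rich array exceeded the T-cell-poor median of Cxcr5, with overlap at the edge.

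Cd83, a marker of activated B cells and mature dendritic cells, rose by 1.20 ± 0.23 (SE, limma adjusted p = 0.00839). Ccr6, a chemokine receptor of B cells and some T cells, rose by 1.06 ± 0.18 (SE, limma adjusted p = 0.00506). The 6 mature B-cell calls held in number (6 or 7) whichever of the 20 arrays was left out. Bank1, a B-cell scaffold protein among the pan-B-cell genes, had a log2 fold change of 1.05 ± 0.32 (SE, limma adjusted p = 0.135).

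Immunoglobulin genes varied over a wide range. Igkv4-91, a kappa light-chain variable gene, had 6.72, 8.30 and 10.58 in T-cell-rich arrays, against 4.73, 5.84 and 7.90 in T-cell-poor arrays, and rose by 2.55 ± 0.42 (SE, limma adjusted p = 0.00356). Igkv9-120 had 9.10, 10.71 and 12.81 in T-cell-rich arrays, against 6.66, 8.59 and 10.58 in T-cell-poor arrays, and rose by 2.50 ± 0.47 (SE, limma adjusted p = 0.00838). Ighg3, a constant gene of switched antibodies, rose by 2.08 ± 0.49 (SE, limma adjusted p = 0.0377), a call that was lost when any of 12 arrays was left out. Variable genes of 1 family are alike in sequence, so these probe sets may not tell family members apart. Ighm, the constant gene of IgM, had 9.05, 10.10 and 11.36 in T-cell-rich arrays, against 5.57, 8.02 and 11.29 in T-cell-poor arrays, and did not pass the threshold (limma adjusted p = 0.0627). Of 11 plasma-cell genes 1 rose, Prdm1, the factor that drives plasma-cell fate and also acts in T cells, by 0.63 ± 0.14 (SE, limma adjusted p = 0.0308). Its call was lost with the macrophage score as a term and without replicate 4, 6, 9, 14, 16, 17, 18 or 31, where its adjusted p reached 0.0687. Jchain, which joins IgM and IgA units, had a log2 fold change of 1.86 ± 0.47 (SE, limma adjusted p = 0.0546), with 0.99 at 100 ng and 2.44 at 300 ng.

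Of 16 dendritic-cell genes 4 rose, with a median log2 fold change of 0.60. Ccl22, a chemokine of mature dendritic cells that attracts Ccr4-bearing T cells, had 6.27, 7.28 and 8.96 in T-cell-rich arrays, against 5.32, 5.79 and 6.46 in T-cell-poor arrays, and rose by 1.53 ± 0.28 (SE, limma adjusted p = 0.00583). Clec9a, a receptor for dead cells on cross-presenting dendritic cells, had 5.50, 6.62 and 7.46 in T-cell-rich arrays, against 5.33, 5.71 and 6.21 in T-cell-poor arrays, and rose by 0.76 ± 0.15 (SE, limma adjusted p = 0.0107). For both genes the groups overlapped at the edge, and 9 or all 10 T-cell-rich arrays lay above the T-cell-poor median. Fscn1, the actin-bundling protein of mature dendritic cells, rose by 1.53 ± 0.37 (SE, limma adjusted p = 0.0459), a call lost when any of 12 arrays was left out. Apol7c, an apolipoprotein L family gene known from dendritic cells and in none of the lists, rose by 2.44 ± 0.41 (SE, limma adjusted p = 0.00373), with 7.03, 8.96 and 10.69 in T-cell-rich arrays, against 5.34, 6.52 and 7.93 in T-cell-poor arrays.

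Of 19 macrophage genes 1 rose, Csf1r, the receptor of macrophage colony-stimulating factor, by 0.78 ± 0.18 (SE, limma adjusted p = 0.0316), and the list's median was 0.06. Its call was lost when any of 8 arrays was left out. The macrophage score ran from -0.24 to 0.36 in T-cell-rich arrays and from -0.52 to 0.18 in T-cell-poor arrays. With that score as a term, 146 genes were higher and 1 lower, and 143 of the 238 calls were kept.

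Interferon-response genes rose in part, while Ifng itself did not pass the test. Ifng was dim, at 5.92 to 6.55 where array medians lay between 6.54 and 6.95, so a difference in it could be missed. Of 11 genes of the interferon gamma response 4 rose, all 11 had a positive log2 fold change, and the median was 0.68. Cxcl9, a chemokine induced by interferon gamma, had 9.07, 9.61 and 10.67 in T-cell-rich arrays, against 6.97, 8.26 and 9.57 in T-cell-poor arrays, and rose by 1.40 ± 0.27 (SE, limma adjusted p = 0.00989). Gbp4, a guanylate-binding protein of host defence, had 7.12, 7.97 and 9.45 in T-cell-rich arrays, against 6.11, 6.76 and 7.29 in T-cell-poor arrays, and rose by 1.47 ± 0.26 (SE, limma adjusted p = 0.00567). In both genes every T-cell-rich array stood above the T-cell-poor median, with overlap at the edges. Irf1, a transcription factor of this response, rose by 0.70 ± 0.14 (SE, limma adjusted p = 0.00938). Cxcl10 rose by 0.85 ± 0.19 (SE, limma adjusted p = 0.0297), a call lost without replicate 10, 14, 17, 22, 32 or 9, where its adjusted p reached 0.0678.

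Of 19 genes of the type I interferon response 9 rose, all 19 had a positive log2 fold change, and the median was 0.77 (0.94 at 100 ng and 0.68 at 300 ng). Usp18, which takes the ubiquitin-like ISG15 off proteins and damps interferon receptor signalling, had 7.90, 8.92 and 10.36 in T-cell-rich arrays, against 6.84, 7.36 and 8.09 in T-cell-poor arrays. It rose by 1.59 ± 0.27 (SE, limma adjusted p = 0.00455), and replicates 30 and 17, at 10.36 and 10.27, were the highest. Oasl2, of the oligoadenylate synthetase family, rose by 1.20 ± 0.19 (SE, limma adjusted p = 0.00315), Irf7, the factor that amplifies interferon production, by 1.43 ± 0.26 (adjusted p = 0.00676) and Rtp4 by 1.43 ± 0.26 (adjusted p = 0.0057). The list's score ran from -0.26 to 1.27 in T-cell-rich arrays and from -0.82 to 0.01 in T-cell-poor arrays, and the lowest T-cell-rich score was that of replicate 4. The number of members called fell to 5 without replicate 30, 17, 16, 22, 9, 32, 14 or 6, and to 5 with the macrophage score as a term or with a score not centred within RNA input. It was 4 with a score from other T-cell genes and 0 within either RNA input alone.

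The promoters of interferon-induced genes often hold the interferon-stimulated response element, searched here as GAAA, 2 bases of any kind and GAAA again, on both strands, in the 250 bases before each gene's start in RefSeq (GRCm38.p6). It was present in 3.46% of 27025 genes with a promoter and in 3.40% of the 15611 tested ones. Among genes higher in T-cell-rich arrays it was present in 21 of 168 (12.5%), with 1 of 27 (3.70%) in T-cell and NK-cell lists and 20 of 141 (14.2%) outside them. In the type I interferon list 7 of 13 (53.8%) held it, and among its called members 2 of 6 (33.3%). The windows of 3 genes are shown because they rose and hold the letters, which are in capitals and read TTTC in place of GAAA where the match is on the other strand. Ifit1 and Ifit3, which block translation of viral RNA, were picked for these letters after their values were seen. Both lie on chromosome 19 (chr19:34640639-34640888 and chr19:34583279-34583528, plus strand), Cxcl10 on chromosome 5 (chr5:92348890-92349139, minus strand).
Ifit1: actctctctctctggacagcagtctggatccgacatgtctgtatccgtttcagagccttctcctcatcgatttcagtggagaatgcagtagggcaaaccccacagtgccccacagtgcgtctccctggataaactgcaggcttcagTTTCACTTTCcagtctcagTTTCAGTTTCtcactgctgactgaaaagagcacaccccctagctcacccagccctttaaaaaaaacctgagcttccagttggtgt
Ifit3: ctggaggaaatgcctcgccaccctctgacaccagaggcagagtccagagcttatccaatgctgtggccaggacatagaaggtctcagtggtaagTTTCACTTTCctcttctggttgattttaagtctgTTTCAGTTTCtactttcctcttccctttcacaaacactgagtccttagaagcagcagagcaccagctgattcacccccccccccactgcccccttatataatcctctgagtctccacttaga
Cxcl10: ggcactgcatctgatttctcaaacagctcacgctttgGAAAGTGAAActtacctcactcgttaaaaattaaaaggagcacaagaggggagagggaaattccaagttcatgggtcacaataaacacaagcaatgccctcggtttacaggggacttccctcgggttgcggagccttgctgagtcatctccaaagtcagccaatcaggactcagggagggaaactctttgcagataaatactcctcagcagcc
The windows of Ifit1 and Ifit3 each hold the letters at 2 places, starting 104 and 85 bases (Ifit1) and 156 and 122 bases (Ifit3) before the start site, and that of Cxcl10 at 1 place, 213 bases before it. Ifit1 averaged 7.71 ± 0.99 in T-cell-rich arrays and 6.25 ± 0.42 in T-cell-poor arrays (SD, n = 10 each, limma adjusted p = 0.0256). Ifit3 averaged 8.42 ± 0.96 in T-cell-rich arrays and 7.07 ± 0.56 in T-cell-poor arrays (SD, n = 10 each, limma adjusted p = 0.0491). Every T-cell-rich array lay above the T-cell-poor median of both genes. The call of Ifit1 was lost without replicate 32 (adjusted p = 0.0534 by limma), and that of Ifit3 when any of 15 arrays was left out. A match is a run of letters and not a measured binding site.

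Few antigen presentation genes passed the test. None of 11 MHC class II genes were called by limma, with 2 at an unadjusted p under 0.05, though all 11 had a positive log2 fold change (median 0.23). H2-Aa, a class II chain, had 11.62, 12.35 and 12.74 in T-cell-rich arrays, against 11.21, 12.05 and 12.67 in T-cell-poor arrays, largely overlapping. Of 10 MHC class I genes 1 rose, Tapbp, the chaperone tapasin that loads peptides, by 0.47 ± 0.10 (SE, limma adjusted p = 0.0211). B2m, the light chain of class I molecules, had 12.65, 13.12 and 13.73 in T-cell-rich arrays, against 12.71, 12.91 and 13.23 in T-cell-poor arrays (adjusted p = 0.50).

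Genes of division and growth had small negative log2 fold changes, and no single one passed the test. All 22 G2 and mitosis genes, all 20 DNA replication genes and all 21 MYC targets and ribosome biogenesis genes had a negative log2 fold change, with medians of -0.31, -0.41 and -0.20, beside -0.03 over all genes. By limma none of these genes were called, and 0, 6 and 1 had an unadjusted p under 0.05. Tk1, the thymidine kinase of S phase, had 8.17, 9.37 and 10.15 in T-cell-rich arrays, against 9.48, 9.95 and 10.29 in T-cell-poor arrays, with a log2 fold change of -0.64 ± 0.18 (SE, limma adjusted p = 0.0904). Mki67, the proliferation marker Ki-67, had 9.87, 12.15 and 12.48 in T-cell-rich arrays, against 11.82, 12.31 and 12.50 in T-cell-poor arrays (adjusted p = 0.68). Myc, which the transgene drives, had 10.64, 13.20 and 13.71 in T-cell-rich arrays, against 12.93, 13.21 and 13.75 in T-cell-poor arrays, so the medians were nearly alike. Replicate 4 was the lowest array for Myc and Mki67 and had scores of -2.02, -2.07 and -1.70 for the mitosis, replication and MYC target lists. The other T-cell-rich arrays had scores of -0.18 to 0.95, -0.31 to 0.58 and -0.24 to 0.57 for these lists. T-cell-poor arrays had -0.17 to 1.07, -0.07 to 0.60 and -0.14 to 0.60. These ranges overlapped widely. The median scores of all T-cell-rich against all T-cell-poor arrays were 0.11 against 0.25 (mitosis), -0.15 against 0.10 (replication) and -0.11 against 0.01 (MYC targets). How far the negative median fold changes rest on replicate 4 was not tested. Bcl2, a survival gene, had a log2 fold change of 1.03 ± 0.33 (SE, limma adjusted p = 0.159).

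**Figure D3:**
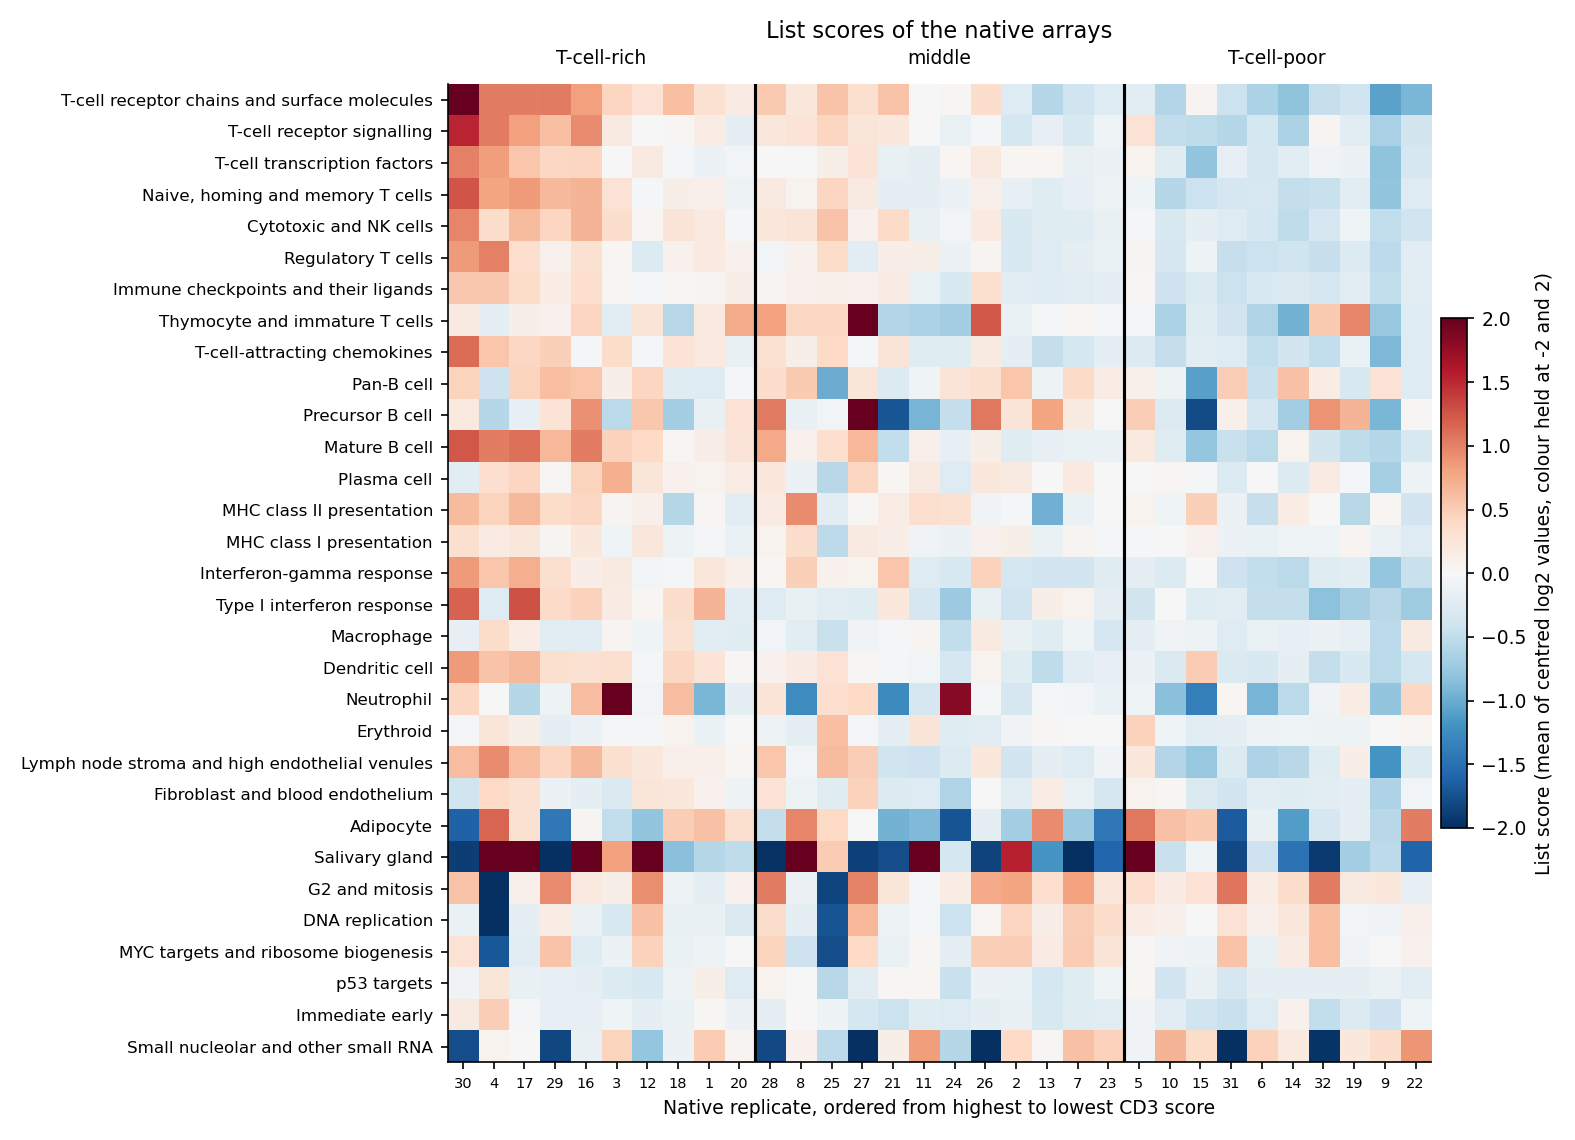
Score of each of 31 gene lists (rows) in each of the 32 native arrays (columns, ordered from the highest to the lowest CD3 score), with T-cell-rich arrays on the left, middle arrays between the lines and T-cell-poor arrays on the right; red is above and blue below the mean of the arrays, in log2 units. Replicate 4 is blue in the mitosis, replication and MYC target rows, replicate 3 is red in the neutrophil row (2.80), and salivary gland scores reach high values in arrays of every class.

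The 8 lower genes had log2 fold changes between -0.35 and -0.62. Mcrip2 had 7.53, 8.48 and 8.99 in T-cell-rich arrays, against 8.73, 9.09 and 9.35 in T-cell-poor arrays, and fell by 0.62 ± 0.13 (SE, limma adjusted p = 0.016). It was the only one of the 8 that kept its call whichever of the 20 arrays was left out. Malsu1, an assembly factor of the mitochondrial ribosome, had 8.79, 9.35 and 9.48 in T-cell-rich arrays, against 9.48, 9.63 and 9.99 in T-cell-poor arrays, and fell by 0.38 ± 0.09 (SE, limma adjusted p = 0.0454). Its groups just did not overlap. Slc25a26, the mitochondrial carrier of S-adenosylmethionine, fell by 0.35 ± 0.08 (SE, limma adjusted p = 0.0292) and Sdhaf3, an assembly factor of succinate dehydrogenase, by 0.41 ± 0.10 (adjusted p = 0.0497). Chrac1, a histone-fold protein of a chromatin remodeller, fell by 0.53 ± 0.13 (SE, limma adjusted p = 0.0497), Rhebl1, a small GTPase related to Rheb, by 0.46 ± 0.10 (adjusted p = 0.0256), Uevld by 0.39 ± 0.09 (adjusted p = 0.0281) and the zinc-finger gene Zfp825 by 0.39 ± 0.09 (adjusted p = 0.0418). Leaving out single arrays took the call from Rhebl1 in 3 cases (replicates 14, 32 and 6), from Slc25a26 in 4 (10, 14, 22 and 32), from Uevld in 7 and from the other 4 genes in 14 to 16. The highest adjusted p among these fits was 0.105, for Chrac1.

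Genes of other tissues and cells were uneven among arrays. None of 11 salivary gland genes were called by limma, 6 had an unadjusted p under 0.05, and the median log2 fold change of 1.46 came from the 300 ng arrays (2.48, against 0.20 at 100 ng). The salivary score ran from -2.03 to 3.73 in T-cell-rich arrays and from -1.91 to 2.99 in T-cell-poor arrays. None of 14 neutrophil genes were called by limma, 4 had an unadjusted p under 0.05, and the median was 0.64 (-0.03 at 100 ng and 1.10 at 300 ng). Retnlg, a granulocyte gene, had 5.67, 7.02 and 10.08 in T-cell-rich arrays, against 4.62, 6.29 and 7.37 in T-cell-poor arrays, with 1 array, T-cell-rich replicate 3, at the top. Erythroid and adipocyte genes had medians of 0.02 and -0.03 and no call by limma, with 0 genes of either list at an unadjusted p under 0.05. The p53 target, immediate early and small nucleolar RNA lists had no call by limma either, with medians of 0.07, 0.18 and -0.32 and with 1, 4 and 0 genes at an unadjusted p under 0.05. Whether salivary or neutrophil RNA plays a part in other differences was not tested. The non-coding gene Xist had a log2 fold change of 0.49 ± 0.53 (SE, limma adjusted p = 0.80) and ran from 9.37 to 13.63 in T-cell-rich arrays and from 9.06 to 12.88 in T-cell-poor arrays.

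**Figure D4:**
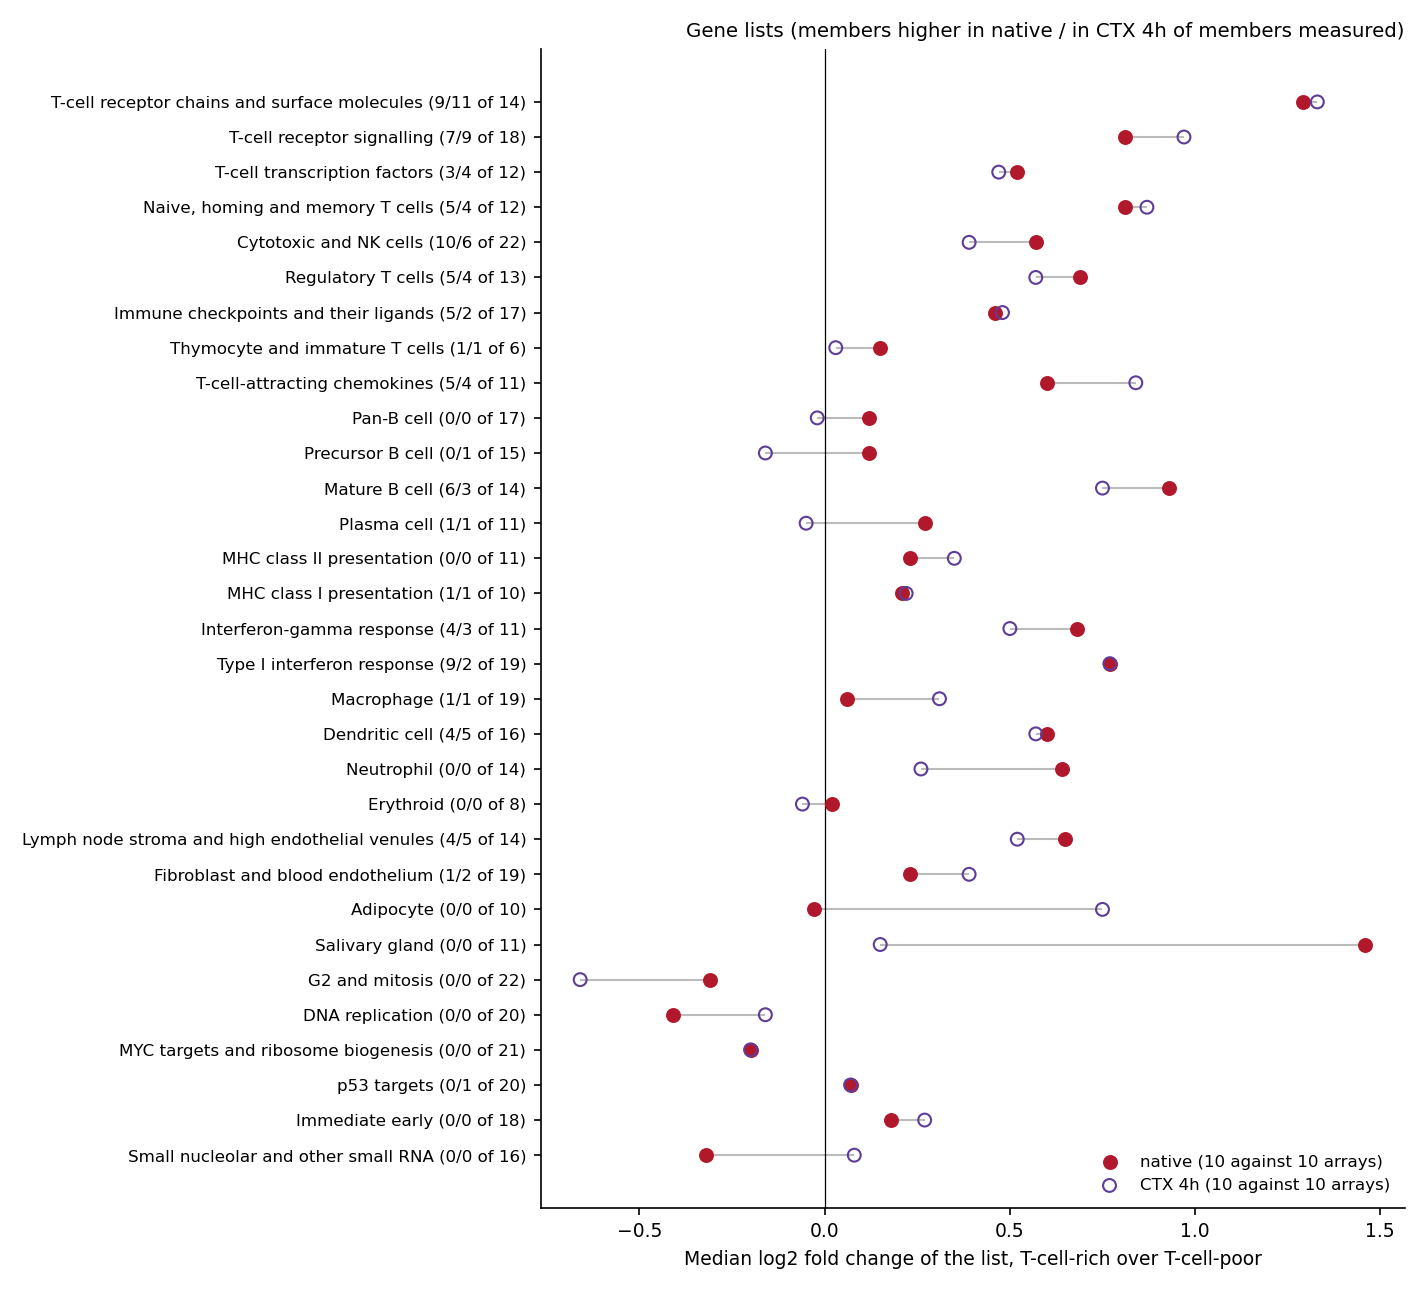
Median log2 fold change, T-cell-rich over T-cell-poor (horizontal axis), of each of the 31 gene lists in native arrays (filled points) and in CTX 4h arrays (open points), with the members higher in each comparison and the members measured in brackets. T-cell receptor genes have medians of 1.29 and 1.33, type I interferon genes 0.77 and 0.77, and the salivary gland list differs most, at 1.46 and 0.15. The native salivary median was 0.20 at 100 ng and 2.48 at 300 ng, and the CTX 4h arrays were all of 100 ng.

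The same ranking was applied to the 29 CTX 4h arrays of 100 ng, which took no part in the choice of native arrays. There, 302 genes (1.51%) were higher and 7 (0.0351%) lower in the 10 T-cell-rich than in the 10 T-cell-poor arrays, 309 (1.55%) in all, and 32 genes (0.161%) were above without overlap. The comparisons shared 106 called genes, 44.5% of the native and 34.3% of the CTX 4h calls, all 106 with the same sign. The 7 lower genes there were Anp32e, Btk, Las1l, Mrps28, Nubpl, Psmd9 and Reln, which include the B-cell kinase gene Btk. Across the 19935 genes, which are not independent of each other, the log2 fold changes had a Pearson correlation of 0.75. Both comparisons ranked arrays by the same CD3 genes, so the shared calls and this correlation were in part built in. Of the 191 higher native genes outside the T-cell and NK-cell lists, 76 were also higher in CTX 4h arrays. These 76 include genes known from T cells that the lists do not hold, such as Dapl1 and Ms4a4b. None of the 8 lower native genes were called there, but all 8 had a negative log2 fold change.

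A test of the difference between both comparisons found no gene (0.0% of 19935) at an adjusted p under 0.05 by limma. The smallest adjusted p was 1.0, and 156 of 19935 genes had an unadjusted p under 0.05. Chance gives 1 in 20 on average, but genes are not independent, so a single data set can lie far from that share. Both comparisons took the extremes of a CD3 score, so the absence of a call does not show that they are alike. Glycam1 changed by 3.60 ± 0.43 (SE, limma adjusted p = 0.000432) in CTX 4h arrays, beside 2.89 ± 0.48 in native arrays. Ccl19 changed by 2.01 ± 0.28 (SE, limma adjusted p = 0.000863), Fcer2a by 2.28 ± 0.34 (adjusted p = 0.0012), Apol7c by 2.22 ± 0.38 (adjusted p = 0.00405) and Usp18 by 1.55 ± 0.38 (adjusted p = 0.0416) in CTX 4h arrays, each near its native value. Dapl1, Prkcq and Cd96 differed by 2.86, 2.17 and 2.23 in CTX 4h arrays, again without overlap. Cd4, whose native groups overlapped, differed by 1.27 ± 0.30 (SE) in CTX 4h arrays.

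Some genes had smaller values in the CTX 4h arrays, which were all of 100 ng, while each native group held 6 arrays of 300 ng. Vsir differed by 0.61 ± 0.23 (SE) in CTX 4h arrays and by 1.09 ± 0.15 in native arrays, and Nt5e by 0.48 ± 0.30 and by 1.27 ± 0.27. Igkv4-91 had a log2 fold change of 1.06 ± 0.56 (SE, limma adjusted p = 0.549) in CTX 4h arrays, where Ighg3 had 0.81 ± 0.32 (adjusted p = 0.309) and Cxcr5 1.17 ± 0.38 (adjusted p = 0.169). The difference between the comparisons did not pass the test for any of these genes. In the native arrays of 100 ng the difference was 1.96 for Igkv4-91, 1.26 for Ighg3, 1.51 for Cxcr5 and 1.55 for Nt5e. Whether RNA input plays a part in the smaller values was not tested. Of the 19 type I interferon genes 2 rose in CTX 4h arrays, with the same median as in native arrays, 0.77. Timd4, a macrophage gene for phosphatidylserine uptake, rose by 1.34 ± 0.24 (SE, limma adjusted p = 0.00583) in CTX 4h arrays, beside 0.94 ± 0.26 (adjusted p = 0.0886) in native arrays.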

How the data were processed

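The deposited values are log2 expression values of 63 Affymetrix arrays, made by RMA (background correction, normalization between arrays, summary of probes) in Partek 6.5, as far as the submitters' processing notes tell. No source used here says which arrays were normalized together. The annotation gave 21789 of 35557 probe sets 1 gene symbol, 1621 several and 12147 none. Where a gene had several such probe sets, the brightest on average over the 63 arrays was kept, which left 19938 genes. The 3 CD3 genes were left out, so 19935 were tested.

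The members and the gene lists were chosen with earlier results of these data known. Of 510 list entries 461 were measured. The comparison was a two-sided moderated test, lmFit then eBayes, in limma 3.58.1 (R 4.3.3), with RNA input as a term for native arrays, and Benjamini-Hochberg adjustment over all tested genes. CTX 4h arrays of 100 ng were ranked alike, and the difference between both comparisons was an interaction term over the 40 arrays.

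Named genes are the 12 largest positive and 12 largest negative fold changes among called genes with the same sign at both RNA inputs, up to 4 members a list with the smallest p, the 5 smallest p of the interaction, and a fixed set of genes of interest. Ifit1 and Ifit3 were added after their values were seen. On simulated data with the native design, 45 of 100 genes changed by 0.5 (log2) and 92 of 100 changed by 1 were called, with 10 unchanged genes called among 19935 genes. With the CTX 4h design the numbers were 39, 77 and 8. Alternatives were other group sizes, score genes, normalization, filters, covariates and leaving out each array. Replicate numbers follow accession order and only name arrays. Figures were drawn with matplotlib 3.10.9.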

Additional observations from a re-analysis of the deposited data

Results flagged for a closer look

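Among 254 groups of 10 arrays examined (each reported gene and list score in each native group), 29 held 1 array whose gap to its neighbour was large for the group's range by Dixon's criterion, and chance gives about 1 in 20. No explanation was weighed for them. In T-cell-rich arrays replicate 4 was the lowest for Myc (10.64), Mki67 (9.87) and Chrac1 (8.11) and in the scores of G2 and mitosis (-2.02), DNA replication (-2.07) and MYC targets and ribosome biogenesis (-1.70), and the highest for Ikzf2 (8.66). Replicate 30 was the highest for Cd8a (10.73) and in the score of T-cell receptor chains and surface molecules (2.0), and replicate 16 for Gzma (8.03) and Gzmb (7.99). Replicate 3 was the highest for Retnlg (10.08) and in the neutrophil score (2.80).

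In T-cell-poor arrays replicate 15 was the highest for Cd8b1 (10.36), Ccr9 (7.99) and the dendritic-cell score (0.50), although its CD3 genes were low. Replicate 5 was the highest for Ccr4 (6.37), Ikzf2 (7.32), Kdr (7.92) and the salivary gland (2.99) and erythroid (0.46) scores. Replicate 32 was the highest for Cd247 (7.99), Malsu1 (9.99) and the DNA replication score (0.60), and replicate 22 for Chrac1 (10.09), while it was the lowest for Il7 (4.02). Replicate 10 was the highest for Ighg3 (7.28). Replicate 9 was the lowest for Irf1 (8.08) and in the score of T-cell-attracting chemokines (-0.90).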

How the results depend on the processing

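All 238 native calls kept their sign under each alternative run, apart from the filter on dim genes, which left 227 of them to test. Most alternatives used largely the same arrays, so kept signs were likely from the outset. Of the 238 calls, 1 was kept in the 100 ng arrays alone and 25 in the 300 ng arrays alone. With the macrophage score as a term 143 were kept, without replicate 17 146, and with all 32 arrays on a continuous score 227. The counts, higher and then lower, were 230 and 8 as reported. They were 1 and 0 in the 100 ng arrays alone (4 against 4) and 26 and 0 in the 300 ng arrays alone, where fewer arrays entered. They were 146 and 1 with the macrophage score as a term, 940 and 135 with all 32 arrays on a continuous score, 337 and 3 with 8 against 8 arrays, and 417 and 45 with 12 against 12. A score from 6 other T-cell genes (14 of 20 arrays shared) gave 476 and 79, and one from Cd3d and Cd3e alone, chosen after seeing the data (18 of 20 shared), 452 and 26. The number of lower genes was 16 with a term for the digit that opens the lymphoma number, 25 after quantile normalization, 13 among genes with a mean of at least 6, 3 with trend and robust eBayes and 5 with the mean of probe sets. Leaving out 1 array gave 144 to 316 higher and 1 to 26 lower genes. The higher count was lowest without replicates 17 (144), 9 (149), 16 (152) and 14 (153), and highest without replicate 12 (316). The lower count was 1 without replicates 32 and 14, 3 without 30, 22 and 10, 4 without 17, 9 and 6, 5 without 29 and 16, and 26 without 12. In CTX 4h arrays the counts of 302 and 7 became 527 and 66 with that digit as a term, 817 and 151 with a continuous score, and 369 and 13 after quantile normalization. Leaving out 1 array gave 150 to 442 and 1 to 27, with replicates 21 (150), 11 (167), 16 (167), 13 (168), 15 (182), 22 (188) and 29 (192) lowering the higher count most. The lower count there was 1 without replicates 21, 13, 11, 25, 26 and 16, 2 without 31, 18, 15 and 29, 3 without 14, 4 without 12 and 24, 14 without 30, 17 without 27 and 27 without 19. The cause of these shifts was not tested. Genes far from any call changed sign in places. In native arrays Gzma was -0.03 and Il7r -0.56 in the 100 ng arrays alone, Myc was 0.04 without replicate 4, the low-Myc array, with -0.31 to 0.04 over all left-out arrays, and Ifng was 0.02 with 12 against 12 arrays and 0.23 with the other T-cell genes. In CTX 4h arrays Ifng ran from -0.12 to 0.01 when 1 array was left out. Of 72 called genes named here, 46 kept their call whichever array was left out.

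No paired analysis was possible because replicate numbers were given in accession order and tie no T-cell-rich array to a T-cell-poor one. RMA compresses differences of dim genes.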
